A study of Homo sapiens with 11 samples.

Results

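The addition of bevacizumab to PLX4720 was examined by setting the COMBO arrays (2) against the PLX4720 arrays (3) of one series of human expression arrays, that is 5 of its 11 arrays. All 5 arrays came from subcutaneous xenografts of A375, a human melanoma cell line with the V600E mutation of BRAF, in 6-week-old female CD1 athymic mice. Daily PLX4720 at 60 mg/kg by gavage for 12 days was shared by both arms, and COMBO mice also received bevacizumab at 10 mg/kg, injected into the peritoneum 3 times a week. Vehicle arrays (3; methylcellulose at 1%) and arrays of bevacizumab alone (3; same dose and schedule) entered the fit and are given as background. The xenograft has a human tumour compartment and a mouse stroma, and athymic mice lack mature T cells while keeping myeloid cells. The array carries probes to human transcripts, so mouse cells are seen only as far as their transcripts bind those probes.

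The V600E form of BRAF signals without a receptor and keeps MEK and ERK active, which drives division and, among other programmes, transcription of VEGFA. PLX4720 is an inhibitor of mutant BRAF. Bevacizumab is an antibody that binds human VEGF-A, the secreted factor that makes endothelial cells grow and vessels leak. Hypoxia raises VEGFA as well, through the HIF transcription factors, together with genes of glucose uptake, glycolysis and mitophagy.

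Values are log2 of background-corrected, quantile-normalized probe intensity. A log2 difference is COMBO minus PLX4720 with its standard error (SE) from limma fitted to all 11 arrays, and a gene was called at an adjusted p below 0.05 (Benjamini-Hochberg over all genes). A probe was counted as detected where its deposited detection p was below 0.05. Detected probes numbered 19767 to 21952 per array. With 2 arrays against 3, an exact two-sided permutation test could not go below p = 0.2 for one gene, so the p-values rest on the spread pooled over arms and measure only the spread between these samples. A probe that was below background on every array of one arm gave only a bound on the fold, at which the dim arm was set to the lowest signal detected on its arrays.

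The arrays did not vary alike within arms. The median SD of a gene was 0.159 between the COMBO arrays (n = 2) and 0.445 among the PLX4720 arrays (n = 3), against 0.194 in vehicle (n = 3). Of the PLX4720 arrays, number 2 lay nearest to the COMBO tumours: 917 genes differed at least 2-fold between it and the COMBO mean, against 2379 for PLX4720 1 and 2634 for PLX4720 3. Results that rest on this array are given with and without it. Because it lay nearest to COMBO, leaving it out tends to widen the difference of its arm from COMBO. Calls made without it show how a result depends on this array and are not counted as support for a gene. As a check of the cell line, the melanocyte regulators SOX10, MITF and PAX3 were detected on all 5 arrays, PMEL on 1 of them, and the pigment-cell genes MLANA, TYR and S100B on none.

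Of 14886 genes measured, 1 was called between COMBO and PLX4720, 0.00672% of all, and 1081 had an unadjusted p below 0.05, where 744.3 would be counted at 1 in 20. At that unadjusted limit 455 genes lay higher in COMBO (3.06%) and 626 lower (4.21%). Under the limits stated in the study's methods (log2 difference of at least 1 in size, unadjusted p below 0.01) 84 genes lay higher (0.564%) and 87 lower (0.584%); on the cubic spline values deposited by the authors the split was 46 and 20, with a normexp offset of 50 it was 64 and 39, and without background correction 50 and 23. Both COMBO arrays lay above all 3 PLX4720 arrays for 1207 genes (8.11%) and below them for 1705 (11.5%). With 2 arrays against 3, random order would separate a share of 0.2 of genes, both directions together. Lack of overlap is therefore used below to choose and describe genes and not as a test. The median log2 difference over all genes was -0.07, and -0.23 when arrays were scaled by their median in place of quantiles, so list medians are to be read against that value.

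The called gene was IPO7, which encodes importin 7, a carrier of proteins into the nucleus (chromosome 11, 9384652 to 9448127, GRCh38.p14). Its single probe read 7.10, 6.96 and 6.27 on the PLX4720 arrays and 9.57 and 9.38 on the COMBO arrays. The vehicle arrays read 9.45, 9.67 and 9.92, and those of bevacizumab alone 8.76, 9.20 and 8.70. The PLX4720 arrays were thus the low ones, and the COMBO arrays lay within the range of vehicle and just below. IPO7 was 6.48-fold higher in COMBO than in PLX4720 (log2 2.70 ± 0.30 SE, adjusted p = 0.0278). The call held without PLX4720 2 (adjusted p = 0.0075), PLX4720 1 (0.0453) or PLX4720 3 (0.0184). It was lost without COMBO 1 (adjusted p = 1.0) or COMBO 2 (0.234), and without any one array of vehicle or bevacizumab alone (0.0502 to 0.109). With only the 5 COMBO and PLX4720 arrays in the fit the adjusted p was 0.997. IPO8, the closest relative of IPO7, read 10.44, 10.65 and 9.99 with PLX4720 and 10.30 and 10.16 with COMBO.

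Without PLX4720 2, 243 genes were called, 142 higher and 101 lower. Without PLX4720 3 there were 4, namely ADM, AP2B1 and IPO7, which rose, and the pericyte gene RGS5, which fell. The genes named next were taken by smallest unadjusted p among those whose arrays did not overlap, 12 in each direction. Lack of overlap between COMBO and PLX4720 was thus a condition for being named and is no separate result for these genes. Apart from IPO7 none was called with all arrays, and the adjusted p-values of the other 23 lay between 0.501 and 0.506.

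**Figure D1:**
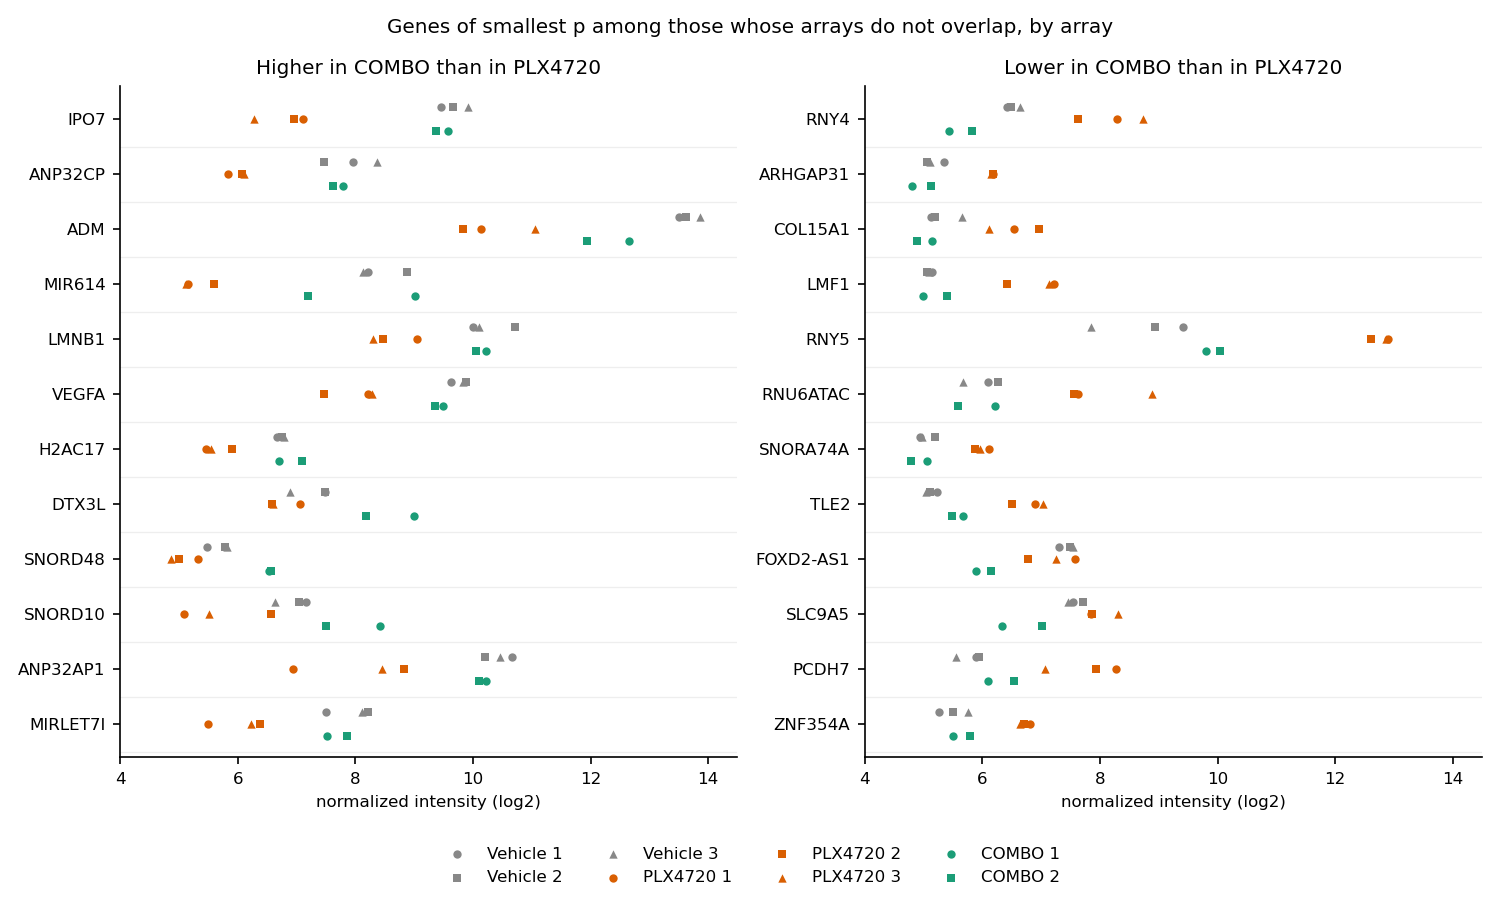
Normalized intensity (log2, x axis) of the 12 genes of smallest p on each side whose arrays did not overlap; each point is one array of vehicle (grey), PLX4720 (orange) or COMBO (green). IPO7 read 6.27 to 7.10 with PLX4720 and 9.38 to 9.57 with COMBO, and RNY5 read 12.62 to 12.91 with PLX4720 and 9.80 to 10.04 with COMBO.

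Among the genes that lay higher, ADM and VEGFA encode secreted vascular factors that hypoxia induces. ADM, the precursor of the vessel-dilating peptide adrenomedullin, read 10.14, 9.84 and 11.05 with PLX4720 and 12.66 and 11.95 with COMBO, and 13.50, 13.63 and 13.87 in vehicle. The COMBO arrays thus lay below all vehicle arrays and above all PLX4720 arrays, the latter being a condition for being named. The difference was 3.89-fold (log2 1.96 ± 0.35, adjusted p = 0.501) and was called without PLX4720 2 (adjusted p = 0.0421) and without PLX4720 3 (0.0295). VEGFA, the target of bevacizumab (chromosome 6, 43770211 to 43786487), read 8.21, 7.47 and 8.28 with PLX4720, 9.50 and 9.36 with COMBO, and 9.62, 9.88 and 9.83 in vehicle. Transcript of the antibody's own target was 2.71-fold higher with the antibody on top of PLX4720 (log2 1.44 ± 0.29, adjusted p = 0.501) and was called without PLX4720 2 (adjusted p = 0.0485). A second detected VEGFA probe read 6.82, 5.64 and 7.05 with PLX4720 and 7.31 and 7.58 with COMBO, a log2 difference of 0.94 in the same direction, and another was detected on no array.

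LMNB1, the lamin B1 of the nuclear envelope, read 9.05, 8.46 and 8.30 with PLX4720 and 10.23 and 10.05 with COMBO (log2 1.53 ± 0.30). The histone gene H2AC17, detected on 1 PLX4720 array, read 5.45, 5.90 and 5.54 against 6.70 and 7.08 (log2 1.26 ± 0.25) and was called without PLX4720 2 (adjusted p = 0.0332). DTX3L, an E3 ubiquitin ligase that acts with PARP9, read 7.06, 6.58 and 6.59 against 9.0 and 8.18 (log2 1.85 ± 0.38). DTX3L differed from the genes above in that the vehicle arrays (7.48, 7.48 and 6.89) also lay below both COMBO arrays. ANP32CP and ANP32AP1, copies of the acidic nuclear phosphoprotein ANP32A that are annotated as pseudogenes, had log2 differences of 1.70 ± 0.30 and 2.09 ± 0.45. Their probes may share targets with ANP32A itself, whose own probe read 5.60, 6.00 and 6.88 with PLX4720 and 7.19 and 6.83 with COMBO (log2 0.85 ± 0.42, adjusted p = 0.707).

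The 12 also held the miRNA genes MIR614 and MIRLET7I and the small nucleolar RNA genes SNORD48 and SNORD10. miRNAs silence messages that pair with their seed, bases 2 to 8, which is in capitals in these mature sequences from RefSeq (GRCh38.p14); they are shown because these are the 2 miRNA genes among the named ones, and the array does not separate a mature miRNA from its precursor or from a longer transcript.
hsa-miR-614: gAACGCCUguucuugccaggugg
hsa-let-7i-5p: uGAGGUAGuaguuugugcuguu
hsa-let-7i-3p: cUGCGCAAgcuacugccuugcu
The MIR614 probe was below background on all 3 PLX4720 arrays (5.15, 5.59 and 5.11) and read 9.01 and 7.19 with COMBO, which is at least 4.96-fold higher. In vehicle it read 8.21, 8.88 and 8.13. MIR614 lies inside GPRC5A, a G protein-coupled receptor gene, and the GPRC5A probe overlapped between the arms, with 8.76, 6.84 and 9.21 with PLX4720 and 8.88 and 7.56 with COMBO (log2 -0.05 ± 0.61). MIRLET7I, detected on 2 of the PLX4720 arrays, read 5.49, 6.37 and 6.21 with PLX4720 and 7.52 and 7.86 with COMBO (log2 1.66 ± 0.36), and was called without PLX4720 2 (adjusted p = 0.0466). Of the 10 other let-7 genes with the 5p seed GAGGUAG, 2 were measured: MIRLET7D overlapped between the arms (log2 0.50 ± 0.60), and MIRLET7F1 was detected on 1 of the 5 arrays. The family therefore gave no common value.

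SNORD48 guides methylation of ribosomal RNA and was below background on all PLX4720 arrays (5.33, 5.01 and 4.86), against 6.52 and 6.56 with COMBO, at least 1.68-fold higher. Its host SNHG32 had a log2 difference of -0.17 ± 0.28. SNORD10, detected on 1 PLX4720 array, read 5.08, 6.56 and 5.51 against 8.42 and 7.51 (log2 2.25 ± 0.48; adjusted p = 0.0231 without PLX4720 2), while its host EIF4A1, a helicase of translation initiation, had 0.13 ± 0.19. In both cases the small RNA and the gene that holds it gave different values.

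Among the genes that lay lower, the Y RNAs RNY4 and RNY5, short transcripts bound by the Ro protein, had the largest differences of the 12. RNY5 read 12.91, 12.62 and 12.87 with PLX4720, 9.80 and 10.04 with COMBO, and 9.42, 8.94 and 7.85 in vehicle. It was 7.35-fold lower in COMBO (log2 -2.88 ± 0.58, adjusted p = 0.501). RNY4 read 8.28, 7.63 and 8.73 with PLX4720, 5.42 and 5.82 with COMBO, and 6.43, 6.48 and 6.64 in vehicle. RNY4 was detected on only 1 of the COMBO arrays; both lay below vehicle for RNY4 and above it for RNY5. The RNY4 difference was 6.02-fold (log2 -2.59 ± 0.44, adjusted p = 0.501) and was called without PLX4720 2 (adjusted p = 0.0179).

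After these were seen, all Y RNA, vault RNA and small nuclear RNA (snRNA) genes on the array were looked up. These classes work in RNA quality control (Y RNA), in the vault particle (vault RNA such as VTRNA1-1), and for most snRNAs in the spliceosome. RNY1 read 8.67, 8.81 and 9.59 with PLX4720 and 6.82 and 7.03 with COMBO (log2 -2.09), while RNY3 lay the other way (0.76). Both genes annotated as vault RNA, VTRNA1-1 (at least 2.07-fold, below background on both COMBO arrays) and VTRNA2-1 (log2 -1.59, detected on 1 COMBO array), lay lower. Of 14 snRNA genes 7 had an unadjusted p below 0.05, all lower (50%, against 4.21% of all genes), with a median of -1.17 over the 14. Among the 7 the U1 gene RNU1-1 read 10.50, 11.58 and 11.40 against 9.92 and 9.47. RNU6ATAC, of the minor spliceosome, was one of the named genes (7.63, 7.55 and 8.89 against 6.22 and 5.58; log2 -2.13 ± 0.43; detected on 1 COMBO array). Of 171 snoRNA genes 19 lay higher (11.1%, against 3.06% of all genes) and 5 lower (2.92%, against 4.21%) at that limit. Of 143 miRNA genes 10 lay higher (6.99%) and 4 lower (2.80%). These counts moved with the arrays: the snoRNA genes gave 9 and 2 without COMBO 1, 20 and 10 without PLX4720 1 and 26 and 11 without PLX4720 2, and the miRNA genes 11 and 10 without PLX4720 2. Leaving out any one of the 5 arrays gave 3 of 4 Y RNA genes, 2 of 2 vault RNA genes and 6 to 9 snRNA genes lower. Several of these genes have near-identical copies in the genome, so the values cannot be tied to one locus, and mature forms of these RNAs carry no poly(A) tail, from which the labelling kit primes; the part of either in the values was not tested.

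**Figure D2:**
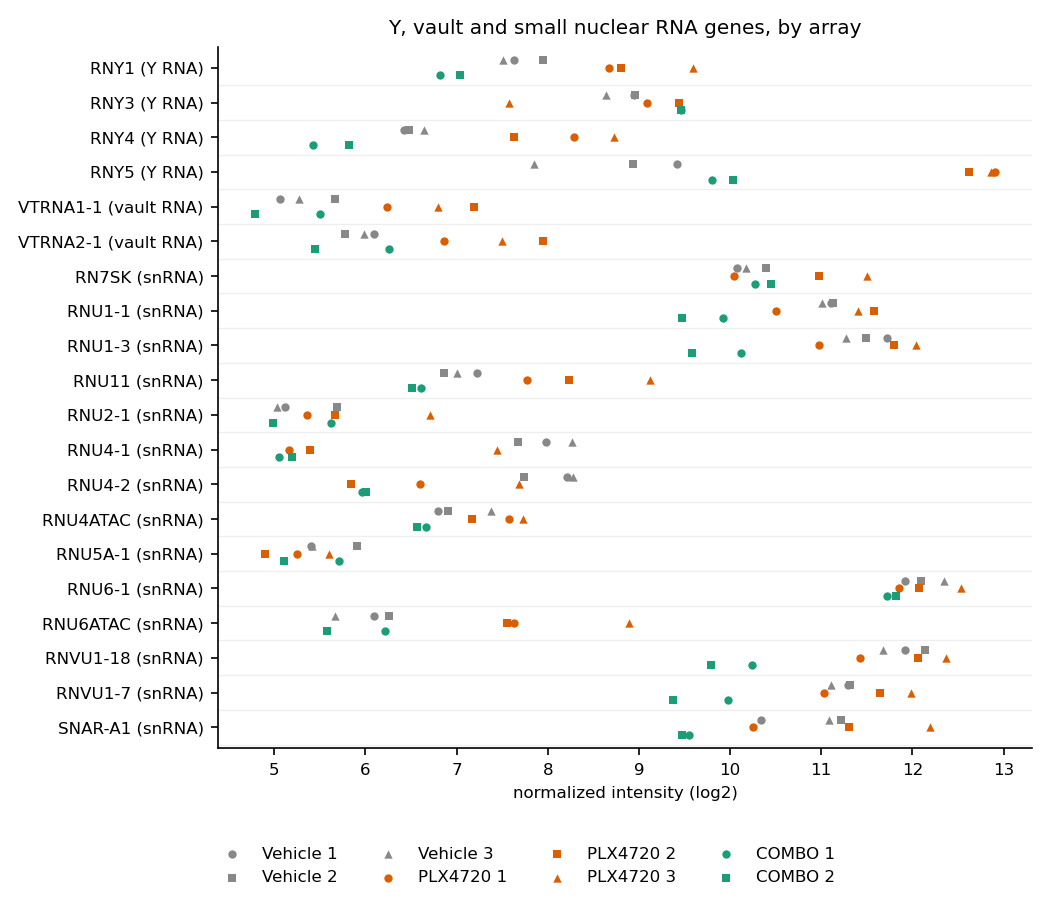
Normalized intensity (log2, x axis) of the 4 Y RNA, 2 vault RNA and 14 snRNA genes measured; each point is one array of vehicle (grey), PLX4720 (orange) or COMBO (green). RNY1, RNY4, RNY5 and both vault RNAs lay lower on both COMBO arrays than on every PLX4720 array, and RNY3 read 9.46 on both COMBO arrays against 7.58 to 9.44 with PLX4720.

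The other named genes that lay lower were mostly dim. COL15A1, a collagen of basement membranes, read 6.53, 6.96 and 6.11 with PLX4720 and was below background on both COMBO arrays (5.14 and 4.89) and on all vehicle arrays, at least 1.79-fold lower in COMBO. The same held for LMF1, a maturation factor of lipoprotein lipase (at least 2.35-fold lower), TLE2, a Groucho-type corepressor (at least 2.17-fold), ARHGAP31, an activator of GTP hydrolysis by Cdc42 and Rac (at least 1.39-fold), and SNORA74A (at least 1.22-fold). LMF1 (adjusted p = 0.0244), TLE2 (0.0392) and ARHGAP31 (0.0467) were called without PLX4720 2. COL15A1, LMF1 and ARHGAP31 were detected on PLX4720 arrays only, so they passed the detection filter through that arm alone and could enter only as lower. The long noncoding RNA FOXD2-AS1 read 7.58, 6.77 and 7.25 with PLX4720 and 5.89 and 6.14 with COMBO (log2 -1.18 ± 0.26). SLC9A5, a sodium/proton exchanger, read 7.85, 7.87 and 8.31 against 6.33 and 7.01 (log2 -1.34 ± 0.30). For these 2 genes the vehicle arrays (7.30 to 7.54 and 7.46 to 7.71) also lay above both COMBO arrays. The protocadherin PCDH7 (log2 -1.45 ± 0.33) and the zinc finger gene ZNF354A (-1.07 ± 0.25; detected on 1 COMBO array) were the remaining ones.

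Hypoxia-induced genes lay between PLX4720 and vehicle in the COMBO tumours. Of 34 members measured, 30 had a positive difference, 9 lay higher at an unadjusted p below 0.05 (26.5% of the list, against 3.06% of all genes), none lay lower and none was called; the median was 0.30 against -0.07 over all genes. Per array, the list's median over the vehicle mean was -1.11, -1.28 and -0.99 with PLX4720 and -0.62 and -0.85 with COMBO, so the arrays of the arms did not overlap. The median difference stayed above 0 in all 24 alternatives (0.12 to 0.62), and 9 or 10 members lay higher without any one of the 5 arrays except COMBO 1, without which 4 did; 1 lay lower without PLX4720 1. BNIP3, which drives mitophagy, read 11.89, 12.07 and 12.58 with PLX4720, 13.66 and 12.90 with COMBO, and 14.07, 14.27 and 14.19 in vehicle (log2 1.10 ± 0.29, adjusted p = 0.581). NDRG1, a stress-responsive gene, read 11.69, 11.19 and 12.77 with PLX4720, 13.52 and 13.15 with COMBO, and 14.67, 14.94 and 15.05 in vehicle (log2 1.45 ± 0.38, adjusted p = 0.581). For both genes all COMBO arrays lay above PLX4720 and below vehicle. LOX, a collagen crosslinker, was detected on 1 PLX4720 array and neither COMBO array (at least 1.09-fold lower) and had the lowest value of the list.

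**Figure D3:**
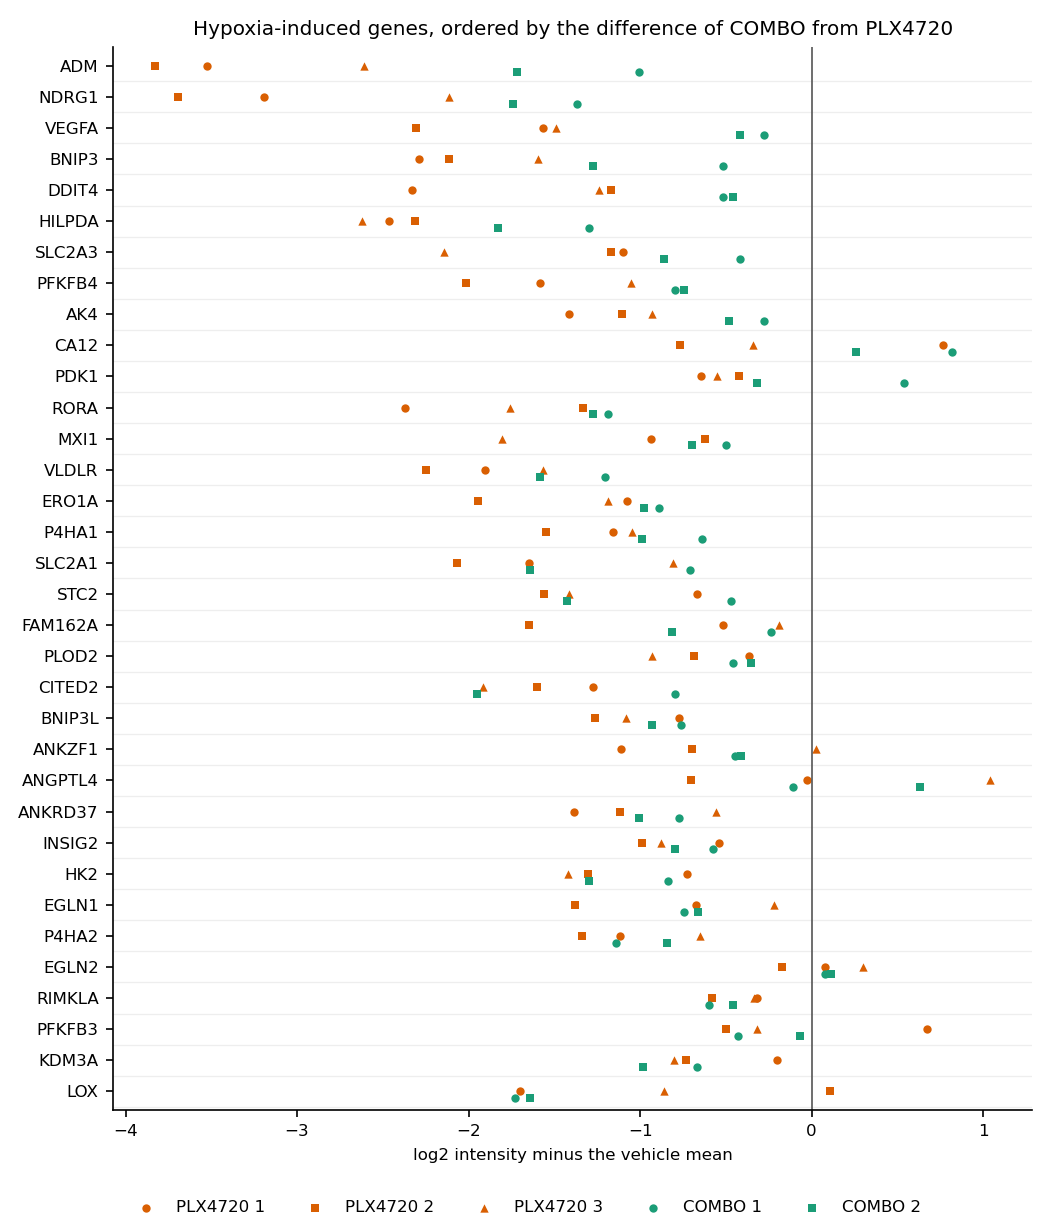
Log2 intensity minus the vehicle mean (x axis; 0 is vehicle) for the 34 hypoxia-induced genes measured, ordered by COMBO minus PLX4720; each point is one PLX4720 (orange) or COMBO (green) array. ADM and VEGFA have both COMBO points to the right of all PLX4720 points and to the left of 0, and LOX, at the bottom, has both near the lowest PLX4720 point.

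The HIF factors bind DNA at a short core, searched here on both strands as ACGTG and as GCGTG. RefSeq promoters (250 bases before to 50 after the start; GRCh38.p14) were given for 28 of the 34 genes, VEGFA not among them. Of these 28, 24 held one core or the other (85.7%), against 48.4% of all 35116 promoters and 60.0% of the 11654 promoters of measured genes. The list was chosen for induction by hypoxia, so this share describes the choice and does not bear on COMBO against PLX4720. The promoters of ADM and BNIP3 are shown because both genes were among those nearest to the test's limit in this list; capitals mark the cores.
ADM (chr11:10304823-10305122, plus strand): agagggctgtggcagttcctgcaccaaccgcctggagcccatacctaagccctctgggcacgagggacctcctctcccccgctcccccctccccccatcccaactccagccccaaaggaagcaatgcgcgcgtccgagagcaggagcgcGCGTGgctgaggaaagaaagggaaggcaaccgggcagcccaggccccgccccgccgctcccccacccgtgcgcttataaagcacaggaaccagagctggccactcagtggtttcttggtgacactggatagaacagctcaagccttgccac
BNIP3 (chr10:131981874-131982173, minus strand): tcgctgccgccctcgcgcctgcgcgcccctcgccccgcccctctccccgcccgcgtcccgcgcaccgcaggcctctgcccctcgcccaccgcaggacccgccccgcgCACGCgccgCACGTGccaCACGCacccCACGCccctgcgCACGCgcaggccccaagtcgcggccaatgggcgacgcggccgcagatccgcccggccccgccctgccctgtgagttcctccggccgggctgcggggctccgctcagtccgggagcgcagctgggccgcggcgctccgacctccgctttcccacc
ADM held 1 match of GCGTG and none of ACGTG, and BNIP3 held 4 and 2, the 2 of ACGTG being the overlapping strands of one palindrome. A match describes the letters of the window and no binding was measured.

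Of the glycolysis genes, part lay higher: 13 of 19 had a positive difference. The median was 0.16, which turned to -0.10 under median scaling. At the unadjusted limit 2 lay higher (10.5%, against 3.06% of all genes). They were PGK1 (13.17, 13.61 and 13.37 with PLX4720, 14.25 and 13.97 with COMBO; log2 0.73 ± 0.25) and PGAM1 (10.77, 13.02 and 13.02 against 13.41 and 13.62; 1.25 ± 0.55), enzymes of its later steps. PGAM1 rests on PLX4720 1, which lay apart from the other PLX4720 arrays, and a second PGK1 probe gave 0.45 with overlap. Without PLX4720 3 the count was 4 and without COMBO 1 it was 0; PKM fell without PLX4720 2. Of the VEGF family, 7 of 10 members were measured and VEGFA alone passed the unadjusted limit (14.3%, against 3.06% of all genes). The ligands VEGFB (0.14 ± 0.24), VEGFC (0.00 ± 0.33) and PGF (-0.65 ± 0.48) overlapped between arms, as did the coreceptors NRP1 (0.04 ± 0.42) and NRP2 (-0.13 ± 0.51); a second VEGFB probe gave -0.92 and another NRP2 probe 0.88, also with overlap. VEGFD was detected on 1 of the 5 arrays, and the receptors FLT1, KDR and FLT4 were not detected on any array. The 95% interval of the difference ran from -0.38 to 0.67 for VEGFB and from -0.72 to 0.72 for VEGFC.

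Cell cycle genes lay a little higher with COMBO. In mitosis, 31 of 34 genes had a positive difference. The median was 0.33, which dropped to 0.05 under median scaling, where the median of all genes was -0.23. At the unadjusted limit 5 lay higher (14.7%, against 3.06% of all genes) and none lower. Without COMBO 1 the count was 2, without PLX4720 2 it was 3 and without PLX4720 3 it was 9. The list's median over vehicle was -0.33, -0.73 and -0.38 with PLX4720 and 0.00 and -0.28 with COMBO. NEK2, a kinase of centrosome separation, read 9.01, 8.57 and 8.79 with PLX4720, 10.03 and 9.67 with COMBO, and 10.01, 9.63 and 9.88 in vehicle (log2 1.06 ± 0.25, adjusted p = 0.506). CCNA2, cyclin A2, read 10.32, 10.17 and 10.26, against 11.13 and 10.98 with COMBO and 11.14, 11.22 and 11.47 in vehicle (0.80 ± 0.22, adjusted p = 0.595). For both, COMBO read close to vehicle and neither was called; a second NEK2 probe gave 0.61, with PLX4720 1 just above COMBO. In DNA replication, 4 of 33 genes lay higher (1 without COMBO 1, and 2 without PLX4720 1, PLX4720 3 or COMBO 2) and none lower, with a median of 0.17 that turned to -0.10 under median scaling. RFC3, a clamp loader subunit, read 8.73, 9.44 and 8.10 against 9.76 and 9.77 (1.01 ± 0.34) on its used probe, while 2 others gave 0.31 (9.26, 9.69 and 8.91 against 9.60 and 9.60) and -0.50; the mean of the probes gave 0.27, so the RFC3 difference depends on the probe. MCM4, of the replicative helicase, read 10.82, 12.09 and 11.06 against 12.19 and 12.29 (0.92 ± 0.35), with 1.23 on a second probe. Both genes were called without PLX4720 2 (adjusted p = 0.0427 and 0.0421), the PLX4720 array that read highest for them. The 4 DNA replication genes that lay higher with all arrays were 12.1% of their list, against 3.06% of all genes.

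Of the transcripts that ERK controls, DUSP4, a phosphatase that switches ERK off, had the largest difference. It read 4.59, 9.59 and 5.96 with PLX4720, 10.29 and 10.85 with COMBO, and 10.56, 11.49 and 10.72 in vehicle. PLX4720 2 alone of its arm thus came near COMBO, and PLX4720 1 was below background. The log2 difference was 3.85 ± 1.07 (adjusted p = 0.595), and without PLX4720 2 it was 5.29 (adjusted p = 0.00414). A second DUSP4 probe gave 1.05. For DUSP6, another ERK phosphatase, the probes differed: the brighter one read 12.22, 12.55 and 11.62 against 12.18 and 12.29 (0.11 ± 0.28), and the other 8.31, 11.14 and 9.93 against 10.67 and 11.15, a difference of 1.12 in which PLX4720 2 again read at the level of COMBO. ETV5 gave -0.17 ± 0.21 and CCND1 0.36 ± 0.33. SPRY4, an inhibitor of receptor signalling, lay lower (12.37, 11.66 and 11.17 against 10.77 and 10.94; -0.88 ± 0.33, adjusted p = 0.655) by its brightest probe, while another probe detected on all arrays gave 0.90 (6.02, 9.37 and 7.51 against 8.37 and 8.70), so it has no settled sign. EGR3, an early-response transcription factor, read 7.11, 6.30 and 6.57 with PLX4720 and was below background on both COMBO arrays (at least 1.95-fold lower). Detected on PLX4720 arrays only, EGR3 could enter only as lower. It fell without PLX4720 2. Over the 35 ERK genes measured, 1 lay higher at the unadjusted limit (2.86%, against 3.06% of all genes) and 3 lower (8.57%, against 4.21%). Their median was 0.07. Without PLX4720 3 these counts were 5 and 5.

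Genes of the extracellular matrix lay lower with COMBO. Of 45 matrix glycoproteins and proteoglycans, 13 lay lower at the unadjusted limit (28.9%, against 4.21% of all genes) and none higher, with a median of -0.34. Of 28 collagens, 5 lay lower (17.9%) and 2 higher (7.14%, against 3.06% of all genes), with a median of -0.54. Among the 5, COL15A1 and COL11A1 were detected on PLX4720 arrays only. They passed the detection filter through that arm alone and could enter only as lower, which limits the collagen count. The glycoprotein count was 6 without PLX4720 1, COMBO 1 or COMBO 2, and the collagen count 2 without COMBO 1 and 9 without PLX4720 2. No member of either list was called with all arrays, while without PLX4720 2 LAMA1, NID2 and AGRN fell and COL27A1 rose, and the medians stayed below 0 in all 24 alternatives (-0.60 to -0.19 and -0.71 to -0.26). FBLN1, the matrix protein fibulin 1, read 7.83, 9.46 and 8.82 with PLX4720, 6.66 and 6.55 with COMBO, and 5.69, 5.70 and 6.98 in vehicle (log2 -2.10 ± 0.50, adjusted p = 0.506). LAMB2, a laminin chain, read 10.62, 9.82 and 10.96 with PLX4720 and 9.28 and 8.95 with COMBO (-1.35 ± 0.43). TNC, tenascin C, read 14.10, 12.68 and 13.10 against 12.03 and 12.46 (-1.05 ± 0.37), with 11.41, 11.32 and 11.83 in vehicle. On these probes the COMBO arrays lay below every PLX4720 array in all 3 genes. Other detected probes gave smaller differences with overlap: FBLN1 read 8.72, 7.48 and 8.02 against 7.76 and 7.12 on a probe detected on all arrays (-0.63) and gave 0.23 on a dim one, and TNC gave -0.44. COL6A3, a chain of microfibrillar collagen, read 13.16, 12.28 and 12.61 against 10.79 and 12.12 (-1.23 ± 0.42), and COL9A2 read 10.49, 9.50 and 9.95 against 8.16 and 8.52 (-1.64 ± 0.50).

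The fibril-forming collagens were not alike. COL11A1 read 6.21, 5.73 and 5.97 with PLX4720 and was below background on both COMBO arrays (5.32 and 4.84), one of the 5 collagens that lay lower at the unadjusted limit. COL1A1 read 13.55, 12.93 and 13.81 with PLX4720 and 12.17 and 13.70 with COMBO (-0.49 ± 0.53). COL3A1 read 14.36, 12.89 and 11.80 against 11.03 and 12.43 (-1.29 ± 0.73), so that both overlapped between the arms. COL1A2 gave -0.82 ± 0.51 with overlap on its brighter probe, and on a second one 9.52, 8.42 and 8.64 against 7.71 and 7.80 (-1.10), without overlap. Without COMBO 1 the COL1A1 value was 0.27, so it has no settled sign. POSTN, periostin, read 8.97, 10.03 and 9.42 against 8.17 and 9.11 (-0.83 ± 0.42, adjusted p = 0.708), and on a second probe 8.53, 9.39 and 8.83 against 7.12 and 7.90 (-1.41).

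**Figure D4:**
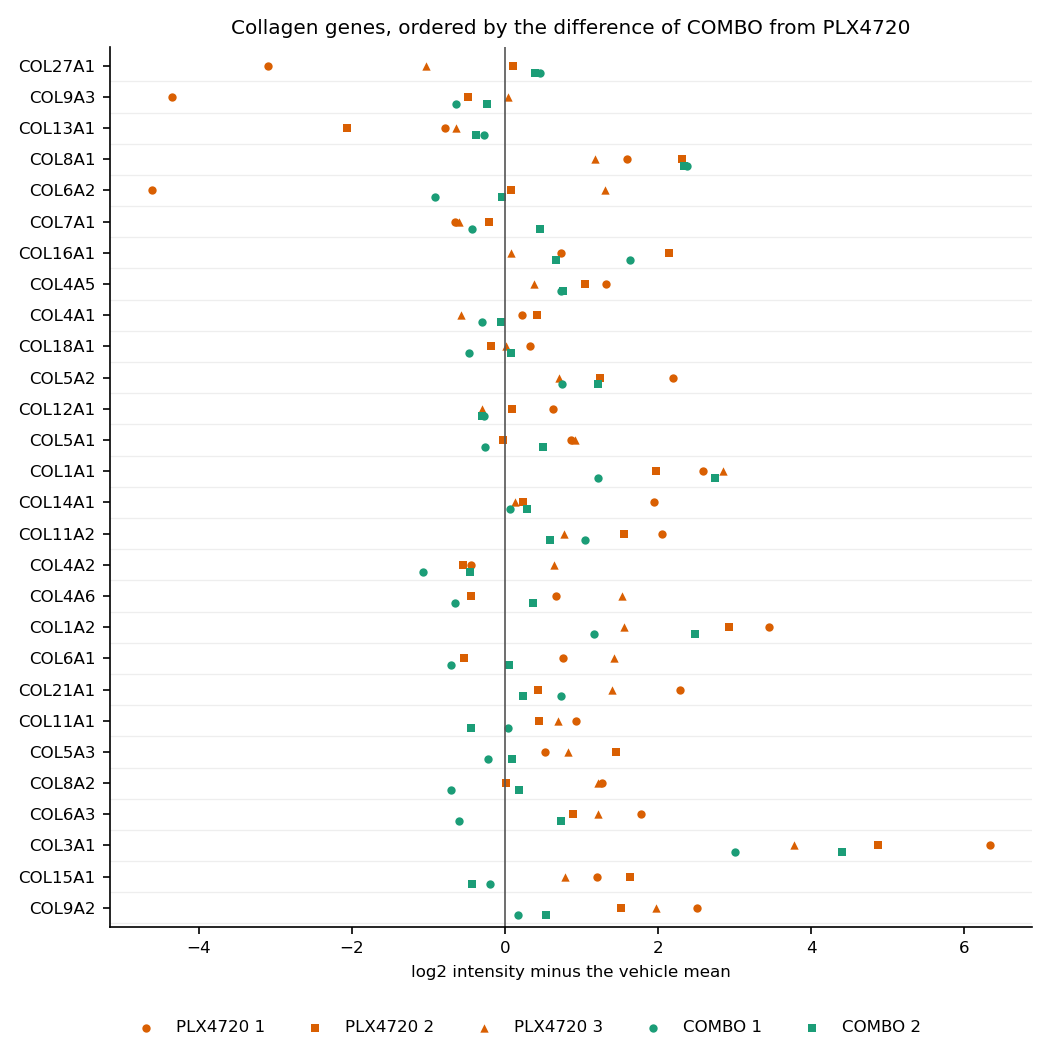
Log2 intensity minus the vehicle mean (x axis; 0 is vehicle) for the 28 collagen genes measured, ordered by COMBO minus PLX4720; each point is one PLX4720 (orange) or COMBO (green) array. Near the bottom, COL15A1 and COL9A2 have both COMBO points left of all PLX4720 points, while COL1A1 and COL3A1 overlap.

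Markers of the cells that make matrix were given the same look. Of 17 fibroblast markers 15 were measured, of which 12 had a negative difference, with a median of -0.49 (-1.09 to -0.26 over the 24 alternatives). This list holds collagens too, among them COL1A1 and COL3A1, and its median is the value of COL1A1. It is therefore no separate evidence beside the collagens. At the unadjusted limit 2 lay lower (1 without COMBO 1, 3 without PLX4720 2, 4 without PLX4720 3 and 5 without COMBO 2) and none higher: TAGLN, an actin-binding protein of contractile cells (9.12, 8.79 and 9.36 with PLX4720, 7.78 and 8.29 with COMBO; -1.05 ± 0.26, adjusted p = 0.527; -0.04 on a second, dim probe), and the receptor PDGFRB (-0.88 ± 0.32). These 2 were 13.3% of the list, against 4.21% of all genes. The fibroblast list's summed intensity was 113073 to 134551 with PLX4720 and 103252 to 120840 with COMBO, so the ranges of this sum overlapped, and THY1 and DPT were not detected on any of the 5 arrays. Of 20 endothelial and pericyte markers 12 were measured, with a summed intensity of 4676 to 14451 and 5915 to 6114. On at least 1 array of the arm 12 were detected with PLX4720 and 9 with COMBO. PECAM1, ENG and ESAM were detected on all 5 arrays, while CDH5, VWF, KDR, FLT1 and CLDN5 were not detected on any of them. RGS5, which marks pericytes, read 9.37, 9.67 and 6.80 with PLX4720 and 6.95 and 6.55 with COMBO (-1.86 ± 0.66), PLX4720 3 being the low array of its arm, and MCAM gave -0.91 ± 0.29. Of 29 leukocyte markers with a probe, 20 were measured, with a summed intensity of 4544 to 6553 and 5701 to 5901. At the unadjusted limit 1 lay lower, CD86 (5.0%, against 4.21% of all genes), and 4 lay lower without PLX4720 2. In each arm 14 were detected on at least 1 array, and CD68, CSF1R, AIF1 and CD86 were detected on all 5 arrays. PTPRC, CD163, CD3E and TYROBP were not detected on any of the 5 arrays. The part of these cells in the matrix values was not tested, and in bulk tumours fewer cells of a type and less RNA per cell cannot be told apart. How far the human tumour cells themselves gave the signal of these markers, MCAM and the summed intensities included, was not tested either.

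Receptor tyrosine kinases gave 3 of 23 genes lower at the unadjusted limit and none higher, with a median of -0.32; 8 lay lower without PLX4720 2, 2 without PLX4720 3, 1 without PLX4720 1 and 0 without either COMBO array. The 3 genes that lay lower with all arrays were 13.04% of the list, against 4.21% of all genes. PDGFRB, also counted above among the fibroblast markers, was 1 of them. The others were MERTK, a receptor for Gas6 (-0.77 ± 0.34), and FGFR4. FGFR4 read 6.74, 5.50 and 7.99 with PLX4720 (detected on 2) and was below background on both COMBO arrays (at least 2.07-fold lower). It was called without PLX4720 2 (adjusted p = 0.0392). A second FGFR4 probe was detected on 1 of the 5 arrays.

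The interferon-stimulated genes overlapped between the arms. With all arrays none of 48 passed the unadjusted limit, and the median was -0.10, near that of all genes. This rests on PLX4720 3, the low array of its arm (list median over vehicle 1.05, against 2.35 and 1.98): without it 8 genes lay lower and 0 higher, with a median of -0.52, and without PLX4720 1 the median was 0.19. ISG15, a ubiquitin-like modifier, read 14.22, 13.63 and 13.15 with PLX4720, 13.55 and 13.14 with COMBO, and 10.96, 10.33 and 9.62 in vehicle (-0.32 ± 0.43; 95% interval -1.26 to 0.61). The chemokine CXCL10 read 9.26, 9.45 and 7.98 against 8.51 and 8.76 (-0.26 ± 0.44), and the adhesion molecule VCAM1 read 13.67, 12.26 and 11.85 against 12.28 and 12.46 (-0.22 ± 0.47). Both arms thus lay far above vehicle and overlapped each other. None of 24 antigen presentation genes and none of 29 NF-kB targets passed the limit with all arrays; without PLX4720 3 3 antigen presentation genes lay higher, and without PLX4720 2 2 NF-kB targets lay higher and 3 lower. Of 33 cytokines 1 passed and lay higher (3.03%, against 3.06% of all genes), and 5 lay higher without PLX4720 3. With all arrays it was IL11, of the IL-6 family. IL11 read 8.26, 10.34 and 9.64 with PLX4720, 10.96 and 12.21 with COMBO, and 11.50, 11.64 and 11.52 in vehicle. Its difference was 2.17 ± 0.52 (adjusted p = 0.506), and it was called without PLX4720 2 (adjusted p = 0.0292). CCL2, which draws monocytes, gave -0.49 ± 0.74. Of 15 complement genes only C1R passed the limit (6.67%, against 3.06% of all genes). It read 5.02, 8.30 and 5.87 with PLX4720 and 9.10 and 8.67 with COMBO.

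**Figure D5:**
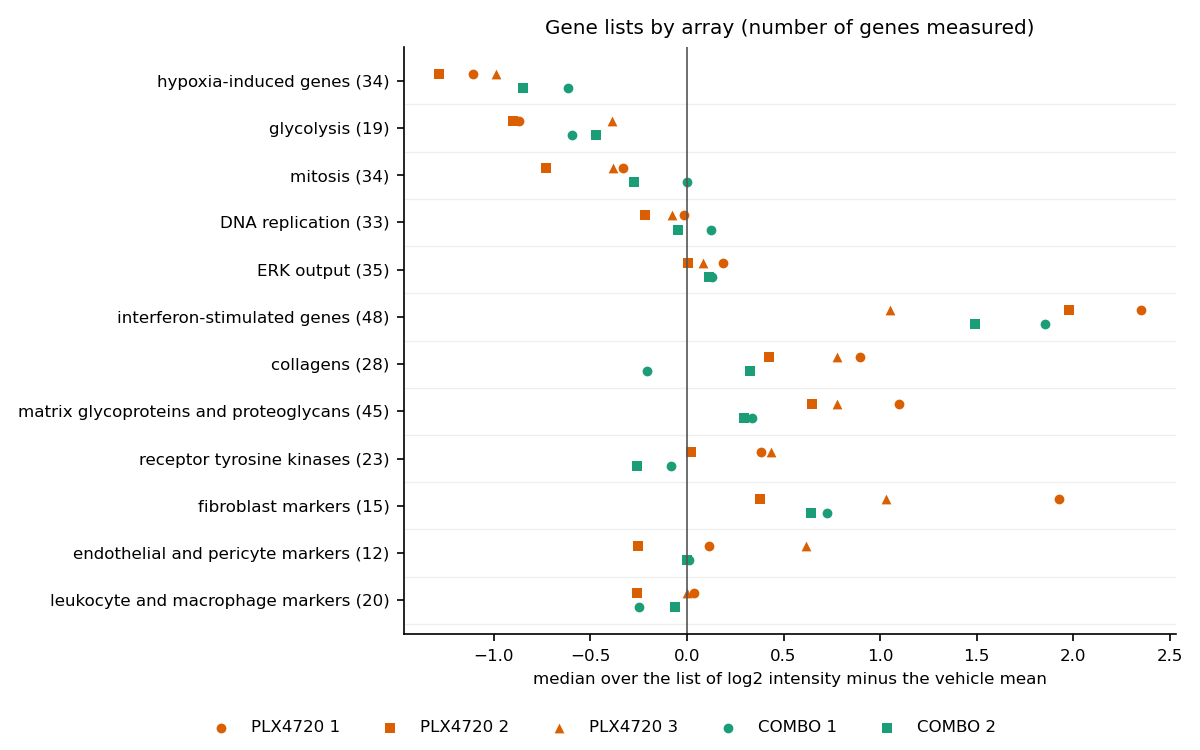
Median over each gene list of log2 intensity minus the vehicle mean (x axis; 0 is vehicle), for each PLX4720 (orange) and COMBO (green) array; the number of genes measured is in brackets. Hypoxia-induced genes lay between -1.28 and -0.99 with PLX4720 and between -0.85 and -0.62 with COMBO, the matrix glycoproteins lay at 0.65 to 1.10 and 0.30 to 0.34, and the interferon-stimulated genes overlapped.

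Genes of cell death lay in both directions. The list of 25 death receptors, caspases and inhibitors of apoptosis also counts KRT18, a target of caspases. Of this list 2 genes lay higher at the unadjusted limit, KRT18 among them (8.0%, against 3.06% of all genes), and 2 lower (8.0%, against 4.21%). Without PLX4720 2 these were 5 and 2, with CASP8, KRT18 and XIAP called, without PLX4720 3 they were 1 and 1, without COMBO 1 2 and 0, and without COMBO 2 1 and 2. KRT18, a keratin that caspases cleave, read 5.62, 8.83 and 7.45 with PLX4720 and 9.40 and 9.58 with COMBO (2.19 ± 0.67), and a second probe gave 1.57. CASP8, the initiator caspase of death receptors, read 5.53, 7.30 and 4.86 against 7.58 and 7.77 (1.78 ± 0.62), and a second detected probe gave 1.05, with PLX4720 2 above both COMBO arrays. Both rose in the fit without PLX4720 2 (adjusted p = 0.0231 and 0.0316), the array of its arm nearest to COMBO for them. CASP1, of the inflammasome, lay lower (7.80, 7.50 and 6.88 against 6.45 and 6.58; -0.88 ± 0.30), as did the decoy receptor TNFRSF10C (at least 1.49-fold, below background on both COMBO arrays). In the BCL2 family 1 of 19 genes passed the limit (5.26%, against 3.06% of all genes). PMAIP1, the BH3-only protein NOXA, read 10.78, 10.18 and 10.22 against 11.02 and 11.34 (0.79 ± 0.31, adjusted p = 0.671). BCL2L11, which encodes BIM, gave -0.01 ± 0.28, with a 95% interval of -0.63 to 0.60.

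Melanocyte and dedifferentiation genes gave no common direction. None of 18 melanocyte genes passed the unadjusted limit (2 lay lower without PLX4720 3); MITF read 7.99, 7.60 and 7.85 with PLX4720 and 7.77 and 6.88 with COMBO (-0.48 ± 0.36). Of 26 genes of the dedifferentiated state 1 lay higher (JUN, 0.55 ± 0.24) and 2 lower, and NGFR read 6.31, 6.58 and 8.44 against 6.52 and 6.01 (-0.85 ± 0.60). Of the TGF-beta list, BMP2 lay higher and LTBP4 lower at the unadjusted limit, out of 29 (1 higher and 3 lower without PLX4720 2 or COMBO 2); TGFB1 was below background on all 5 arrays. Of 28 angiogenic factors ADM lay higher and THBS2 and SERPINF1 lower, and of 34 matrix proteases, their inhibitors and crosslinkers 1 lay lower (4 without PLX4720 1 or PLX4720 2, 0 without COMBO 1). Over all genes 3.06% lay higher and 4.21% lower at this limit. The dedifferentiated list gave 3.85% higher and 7.69% lower, the TGF-beta list 3.45% each way and the angiogenic factors 3.57% and 7.14%. The matrix protease gene was 2.94% of its list. The unfolded protein response (27), ribosomal proteins (41) and lysosome (22) gave 1 gene lower each (3.70%, 2.44% and 4.55%). The 18 genes of RNA handling stress gave 1 each way (5.56%). PLX4720 2 stood apart in these stress genes, with a list median over vehicle of 0.90 against -0.58 and -0.39 on the other PLX4720 arrays and -0.0084 and -0.063 with COMBO. The heat shock gene HSPA6, named after its values were seen, read 7.61, 12.24 and 7.33 with PLX4720 and 7.27 and 6.29 with COMBO. Without PLX4720 1 the stress list gave 0 higher and 5 lower, and without PLX4720 2 it gave 4 and 1, with a median of 0.47; the part of this in the values given without PLX4720 2 was not tested. None of 21 integrins, 8 muscle, fat, skin and blood markers, 19 cholesterol synthesis, 31 oxidative phosphorylation or 18 p53 target genes passed that limit with all arrays, and 0 to 3 genes of each of these lists passed without any one of the 5 arrays.

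Whether bevacizumab acted alike with and without PLX4720 was tested as the difference between COMBO minus PLX4720 and bevacizumab minus vehicle, which share no array. Of 14886 genes 1 was called (0.00672%), again IPO7, and 824 had an unadjusted p below 0.05. IPO7 was 0.79 lower with bevacizumab alone than in vehicle (log2 -0.79, not called) and 2.70 higher with it on top of PLX4720, a difference of 3.49 ± 0.40 (adjusted p = 0.0397). The call was lost without any one array except PLX4720 2 or PLX4720 3. PLX4720 3 and bevacizumab 1 deviated together from the means of their arms (r = 0.63 across genes), the highest value among pairs of arrays from different arms; without both the adjusted p of the difference was 0.106. No gene was called between bevacizumab and vehicle (limma; 353 had an unadjusted p below 0.05). For ADM the change with bevacizumab alone was 0.01 and for VEGFA it was -0.07, against 1.96 and 1.44 on top of PLX4720; the differences, 1.95 ± 0.47 and 1.51 ± 0.38, were not called (adjusted p = 0.862 and 0.869). On its brightest probe FBLN1 went the other way, with 0.88 alone and -2.10 on top of PLX4720 (difference -2.98 ± 0.67, adjusted p = 0.84). Across the genes, which are not independent replicates and whose probes share the same arrays within an arm, the 2 changes had r = -0.08, and 47.0% had the same sign.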

How the data were processed

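The authors ran RNA of A375 xenografts (3 vehicle, 3 PLX4720, 3 bevacizumab, 2 COMBO) on HumanHT-12 v4 arrays of Illumina after labelling with a kit that primes from poly(A) tails. They deposited probe intensity without normalization, with a detection p-value per probe and array from GenomeStudio 2011.01, and cubic spline normalized intensity, used here as an alternative. Nothing in the sources used here gives slides or scan days, and the number of arrays limits precision. Intensities were background-corrected (limma 3.58.1 nec in R 4.3.3, normexp with negative controls inferred from detection p-values, offset 16), normalized by quantiles and log2-transformed. Probes with detection p below 0.05 on at least 1 array were kept, and the brightest probe stood for a gene. Of 47323 probes, 30113 had 1 gene symbol, 8 several and 17202 none; 9087 detected probes without a single symbol were tested apart, and 0 were called (limma; 674 with an unadjusted p below 0.05). Means of the 4 arms were fitted with lmFit and eBayes, checked on simulated data, and p-values were adjusted by Benjamini-Hochberg over 14886 genes. The simulation gave all arms the same spread per gene, taken from the vehicle and COMBO arrays. It therefore does not check the test under the wider spread of the PLX4720 arm. Named genes were up to 12 per direction by size of change among called genes, filled by smallest p among genes whose arrays did not overlap and which were above background on 1 of the 5 arrays, up to 4 of smallest p per list, and a fixed set of looked-up genes; second probes, RNA classes and host genes were chosen after values were seen. The members and lists were chosen with earlier results of these data known. Alternatives were another normalization, background, scaling, filter, probe rule, sample set, weights and left-out arrays.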

Additional observations from a re-analysis of the deposited data

Results flagged for a closer look

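With all arrays in the fit, IPO7 was called for a bevacizumab effect that differed between mice with and without PLX4720. In COMBO the gene was 2.70 higher on the log2 scale than with PLX4720. With bevacizumab alone it was 0.79 lower than in vehicle (log2 -0.79), which was not called. The difference between these changes was 3.49 (limma interaction, adjusted p = 0.0397). The call was lost without PLX4720 1 and without any 1 array of vehicle or bevacizumab alone (adjusted p = 0.0753 to 0.235). It was also lost without a detection filter (0.0565) and with the replicate number as a block (0.355). Without COMBO 1 or COMBO 2 the difference was 3.39 or 3.59. Both COMBO arrays lay above all 3 PLX4720 arrays, and all 3 arrays of bevacizumab alone lay below all 3 vehicle arrays. Groups of 2 or 3 arrays are too small to look for single outlying samples.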

How the results depend on the processing

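The sample titles do not say whether same-numbered arrays form pairs. Such arrays correlated in their deviations from the arm means at -0.472 to 0.266. Deviations cancel out within an arm of so few arrays, so these values cannot decide whether same-numbered arrays were processed together. With the replicate number as a block, 0 genes were called in either test (IPO7 adjusted p = 0.313). COMBO against PLX4720 gave 1 call (IPO7) on the authors' normalized values, with other background corrections, scaling, filters, the mean of probes and a robust trend, and 0 with only the 5 arrays, array weights (IPO7 adjusted p = 0.0526) or each probe tested singly. Leaving out 1 array gave 0 to 243 calls; without PLX4720 3 and bevacizumab 1, whose deviations from the arm means correlated at 0.63 and which stood apart in earlier results, there were 2 (IPO7 and RGS5). The interaction gave 0 calls without a detection filter, with both arrays left out or with single probes, and 0 to 30 without 1 array (30 without PLX4720 2). At the methods' limits the count of 171 moved to 66 on the authors' values, 103 with an offset of 50, 73 without background correction, 89 with detection on all 5 arrays, 58 with only the 5 arrays, 348 without PLX4720 3 and bevacizumab 1, and 448 with single probes (311 higher, 137 lower, over 29725 probes, 0 called); without 1 array it was 68 to 843 (308 without PLX4720 3, 843 without PLX4720 2). Fewer samples or genes enter several of these fits; otherwise the cause was not tested. The 2 COMBO arrays, the spread of the PLX4720 arm and probes near background limit the size of change that could be called.

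Of the values of named genes, 2387 kept direction and call, 29 passed and 23 lost the threshold, and 37, all uncalled, turned sign. On the authors' values these were VEGFC (0.0058) and NRP2 (0.46). NRP2 was 0.66 with an offset of 50 and 0.44 without background correction. With median scaling DUSP6 was -0.21, TGFB1 -0.011, ACTA2 -0.20, VEGFB -0.16 and NRP1 -0.27. With the mean of probes MITF was 0.0011, BCL2L11 0.060, VEGFB -0.39 and NRP2 0.22. With array weights BCL2L11 was 0.029 and VEGFC 0.050, and with the replicate block VEGFC was 0.012. Without PLX4720 3 and bevacizumab 1 DUSP6 was -0.15, BCL2L11 0.11 and VEGFC 0.079. Without 1 array VEGFC lay at -0.33 to 0.25, VEGFD at -0.34 to 0.24, VCAM1 at -0.60 to 0.32 and NRP1 at -0.36 to 0.48 (turned or highest without PLX4720 1 or 2), CXCL10 at -0.72 to 0.015 (turned without PLX4720 2), DUSP6 at -0.15 to 0.31 (turned without PLX4720 3), COL1A1 at -1.26 to 0.27, CCL2 at -1.29 to 0.30, BCL2L11 at -0.26 to 0.23 and NRP2 at -0.92 to 0.66 (turned without COMBO 1), and TGFB1 at -0.13 to 0.21 and ACTA2 at -0.065 to 0.34 (turned without COMBO 2).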
